A study of Mus musculus with 7 samples.

Results

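The wild-type baseline of mouse skin was described from 4 of the 7 libraries in the series, those labelled WT, each made from the skin of a different mouse (mice 5, 6, 7 and 8). Wild type means that Tuft1, the gene deleted in the other 3 mice, was intact, and the labels call the tissue healthy. Age, sex, strain and body site are not given in the sources used here. Genes of the Y chromosome, led by Ddx3y, held 0.0255, 0.0173, 0.0189 and 0.0199% of counts in mice 5, 6, 7 and 8. By these counts all 4 mice appear to be male. RNA from powdered, snap-frozen tissue was turned into libraries with a kit that reads polyadenylated transcripts near their 3′ end, so the number of counts per molecule does not grow with transcript length. Levels are given as CPM, the counts of a gene per 1000000 counts of its library. Levels of different genes on that scale also depend on how well reads from each 3′ end could be assigned, as described for shared and overlapped ends.

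Skin is a layered organ. Basal keratinocytes carry keratins 5 and 14, leave the cell cycle, switch to keratins 1 and 10 and finally crosslink loricrin and other proteins into the cornified envelope that seals the surface. Below lie a collagen-rich dermis made by fibroblasts, a layer of fat and, in mice, a thin sheet of striated muscle called the panniculus carnosus, and hair follicles with their sebaceous glands cross these layers. RNA from a whole piece of tissue cannot tell fewer cells of a type from less RNA per cell.

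Total counts were 9256459, 8612027, 8768984 and 8490972 for mice 5, 6, 7 and 8. Counts were found for 12403 to 14179 genes per library, for 17296 genes in any library and for 9513 in all 4. A level of at least 10 CPM in every library was reached by 6175 genes, at least 100 CPM by 1154 and at least 1000 CPM by 71. A gene with 0 counts in a library is compatible with a level of up to 0.324 to 0.353 CPM (3 counts), a limit that covers counting error only. Protein-coding genes held 96.6% ± 0.104 of the counts (SD, n = 4).

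Keratinocyte genes took the most counts among the lists of skin cell types, followed by those of striated muscle, fat and dermis. The 94 genes of the epidermal lists (basal and suprabasal keratinocytes, cornified envelope, desmosome, stress keratins) held 5.08% ± 0.478 of all counts, with 5.48, 5.22, 5.25 and 4.39% in mice 5, 6, 7 and 8. The muscle lists held 3.27% ± 0.480, the fat list 2.34% ± 0.447 and the dermal lists 2.26% ± 0.475. Immune lists held 0.763% ± 0.0947, the sebaceous list 0.391% ± 0.0339, the follicle lists 0.183% ± 0.0133, vessel and blood lists 0.155% ± 0.0569 and the nerve list 0.115% ± 0.0216. The follicle lists include the melanocyte list, and Gata3, which epidermis and T cells also express, carried 34.2% of their counts. The order epidermis, muscle, then fat or dermis held in every library, while fat and dermis differed by less than their spread. Car3, which muscle also makes, carried 34.2% of the fat list, and without it, an alternative chosen after seeing the data, the list held 1.54% ± 0.341 and lay below the dermal lists in all 4 libraries. The lists are of unequal length, and each share says how many counts its named genes took, not how many cells were present. All lists together held 16.4% of the counts.

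**Figure D1:**
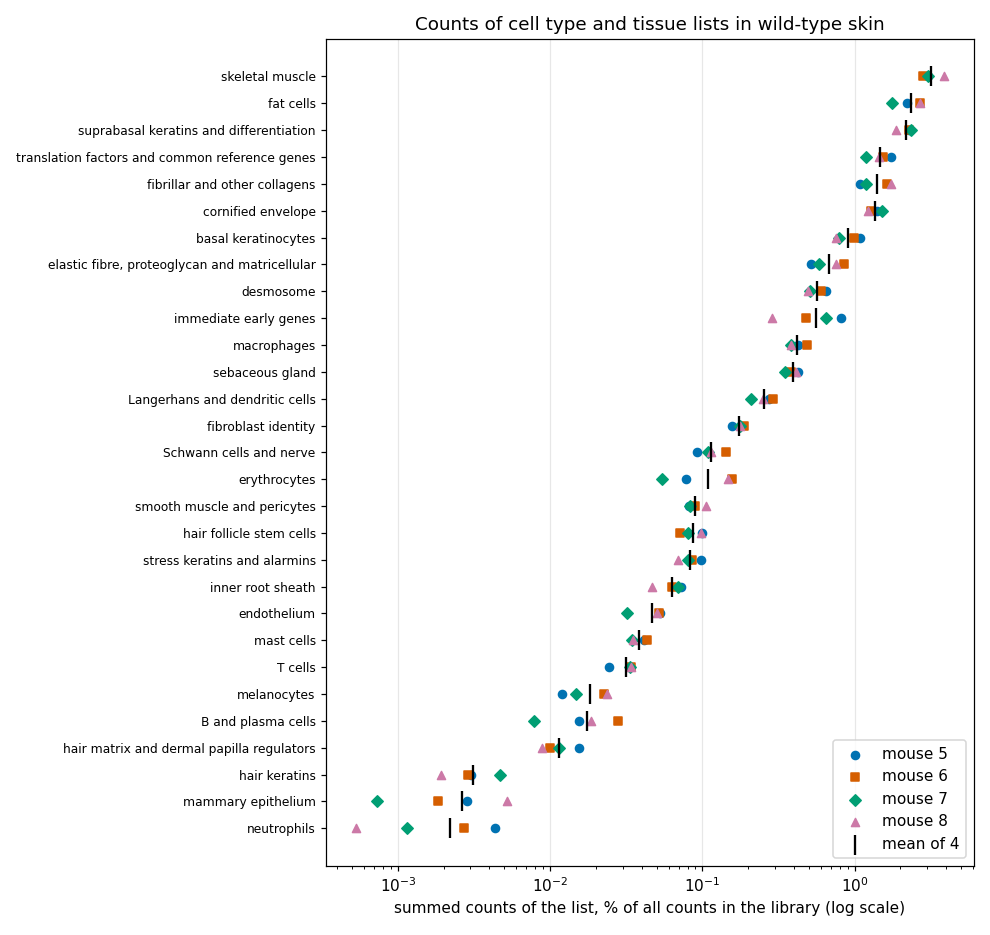
Summed counts of each list of cell type or tissue genes, as a percent of all counts in the library on a log scale, with 1 symbol per mouse and a bar at the mean of 4. Skeletal muscle (3.18%), fat (2.34%) and suprabasal keratinocyte genes (2.18%) lie at the top, and hair keratins (0.00313%) and neutrophil genes (0.00219%) at the bottom.

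The most abundant nuclear gene was Col1a1, the main chain of type I collagen (chr11:94827050-94843868, mm39), at 7940, 10881, 8785 and 12780 CPM in mice 5, 6, 7 and 8. It ranked first among nuclear genes in 3 libraries and at place 3 in mouse 5. Acta1, the actin of skeletal muscle (chr8:124618508-124621490), followed at 9440 ± 1739 CPM, and Car3, a carbonic anhydrase that both fat and muscle make, at 8009 ± 1362 CPM. B2m, the light chain of MHC class I, had 7157 ± 1461 CPM and Lor, which encodes loricrin (chr3:91987578-91990449), 6002 ± 1137 CPM. These 5 genes filled the top 5 places in mice 5, 7 and 8, and Lor was at place 7 in mouse 6. The neighbours in that order lie within a standard deviation of each other, so the order of the means is not firm.

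Behind them came keratinocyte genes: Krt10 with 4861 ± 803 CPM, Krt77 with 4764 ± 660 CPM, Krtdap with 3846 ± 611 CPM and Krt5 with 3738 ± 557 CPM. Among the 25 most abundant nuclear genes, fat was represented by the fatty acid carrier Fabp4, the lipase Lpl and the complement protease Cfd, and muscle by Tpm2, Ttn, Myl1 and Tnni2. Of those 25, 3 belong to no list or family: Neat1, a nuclear long non-coding RNA, had 2277 ± 388 CPM, the glycolytic enzyme Aldoa 2754 ± 280 CPM and the mitochondrial protein gene Chchd2 2603 ± 649 CPM. The 4 lists of 25 had 14 genes in common and 37 in all, and the 4 lists of 100 had 76 in common and 127 in all. Tpm2, the β-tropomyosin of muscle, had 2903, 1626, 3947 and 3980 CPM. It ranked at place 51 in mouse 6 and within the top 11 in each of the other 3.

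**Figure D2:**
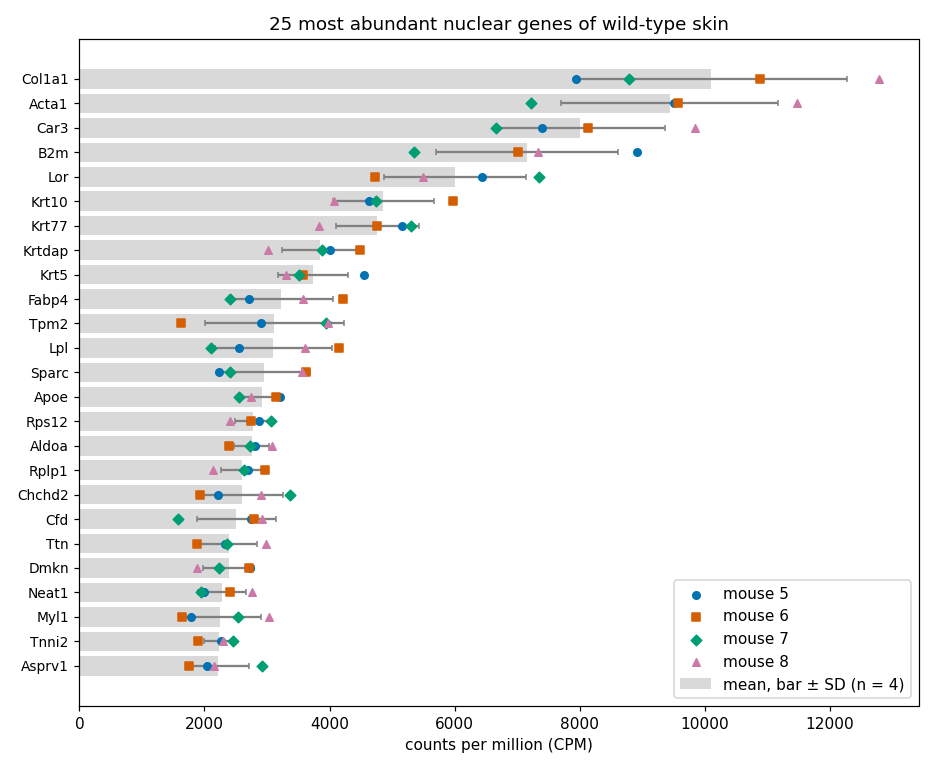
CPM of the 25 nuclear genes with the highest mean over the 4 wild-type libraries, with a bar for the mean, a whisker for the SD (n = 4) and 1 symbol per mouse. Col1a1 reaches 12780 CPM in mouse 8, and the symbols of most genes spread over a range as wide as the step to the next gene.

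In the basal layer, Krt5 had 4556, 3573, 3519 and 3305 CPM in mice 5, 6, 7 and 8. Its partner Krt14 had 2416, 1969, 1548 and 1529 CPM, and Krt15, a keratin of basal and follicle stem cells, 2324, 2968, 1470 and 1452 CPM. Krt14 and Krt15 were higher in mice 5 and 6 than in mice 7 and 8, and Krt5 was highest in mouse 5. The hemidesmosome genes Dst (473 ± 55.3 CPM) and Itga6 (226 ± 41.6 CPM), which anchor the basal cell to its basement membrane, were below all 3 keratins in every library. The basal list summed to 1.08, 0.993, 0.794 and 0.753% of counts.

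Suprabasal genes took more counts than basal ones, 2.18% ± 0.220 against 0.905% ± 0.156, in every library. Krt10 had 4637, 5982, 4746 and 4078 CPM and was highest in mouse 6. Krt77, a type II keratin, had 5160, 4761, 5298 and 3835 CPM and was lowest in mouse 8. Dmkn, a secreted product of differentiating keratinocytes, had 2384 ± 409 CPM, and Asprv1, the protease that processes profilaggrin, 2220 ± 498 CPM. Krt1 had 1351 ± 241 CPM, below Krt10 and Krt77 in every library. Other members were low, with Fabp5 at 29.95 CPM, Tgm3 at 16.3 CPM and Tgm1 at 4.51 CPM. Krt2 had 86, 0, 0 and 0 counts in mice 5, 6, 7 and 8. The ends of Krt1, Fabp5, Tgm3, Tgm1 and Krt2 were 0% shared and 0% overlapped. In the keratin family as a whole, 23 of 54 genes had a count, Krt10, Krt77 and Krt5 held 66.1% of the family's counts, and the family held 2.02% ± 0.254 of all counts.

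The cornified envelope list held 1.35% ± 0.134, of which Lor alone was 44.3%. Lor had 6437, 4725, 7345 and 5499 CPM. Flg2, a filaggrin-like protein, had 1224 ± 154 CPM, and the late cornified envelope genes Lce1m and Lce1a1 had 1605 ± 341 and 983 ± 181 CPM. The Lce3 genes were low: Lce3a, Lce3b, Lce3d, Lce3e and Lce3f had 0 counts in all 4 libraries. Small proline-rich genes were scarce as well. Only 2 of 17 had a count, Sprr1a carried 96.9% of the family, and Sprr2a1, Sprr2d, Sprr3 and Sprr4 had 0 counts. The 0 of Sprr2a1 is less certain, since 100% of its end is shared with Sprr2a2, while Sprr2d, Sprr3 and Sprr4 shared 0%. The Lce3 and Sprr genes are best known from stressed or wounded epidermis. Krt6b was at 0 counts, Krt6a had 98.5 ± 26.8 CPM, and Krt17, which the follicle also makes, had 590 ± 122 CPM.

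Desmosomes, the junctions that hold keratinocytes together, were represented by Dsp (1619 ± 341 CPM), which ties the plaque to keratin filaments, and Perp (1178 ± 66.7 CPM), a membrane protein. Pkp1, a plaque protein, had 957, 525, 691 and 492 CPM. The corneodesmosin gene Cdsn had 606 ± 62.2 CPM and the cadherin Dsg1a 495 ± 72.2 CPM. Tuft1, the gene removed in the mice not used here, had 106, 107, 51.7 and 109 CPM and was present in every wild-type library, lowest in mouse 7. Dsg1c and Dsg4 had 0 counts in all 4. Many of these barrier genes are neighbours in the genome. The epidermal differentiation complex (chr3:90418341-93471950, from S100a10 to S100a1, mm39) held 1.88, 1.75, 2.00 and 1.65% of the counts of mice 5, 6, 7 and 8, the type II keratin cluster on chromosome 15 held 1.05% and the type I cluster on chromosome 11 held 0.978%.

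Follicle genes split by structure. Most genes of follicle stem cells and their niche were present. Sox9 had 209 ± 67.2 CPM, Cd34 had 206 ± 23.6 CPM and Lgr6 had 148 ± 28.2 CPM. All 12 members had a count in some library, and 9 averaged 10 CPM or more. Below that level, Lgr5 had 170, 51, 111 and 10 counts in mice 5, 6, 7 and 8. Bmp6 and Fgf18 had counts in mouse 8 only, at 96 and 2. Genes of the hair shaft had almost no counts. Of 15 hair keratins, 11 had 0 counts in all 4 libraries, among them Krt33a, Krt33b, Krt35, Krt81 and Krt86, and Krt32 with 29.8 ± 11.9 CPM carried 95.2% of the list. Of 12 genes of the inner root sheath, the follicle layer that moulds the growing hair, 10 had 0 counts, including Krt25, Krt27, Krt28, Krt71 and Krt73, and Gata3, which epidermis and T cells also express, carried 99.4% of the list. Of 13 regulators of the hair matrix and dermal papilla, 10 had a count, led by the transcription factor gene Dlx3 at 85.5, 46.4, 54.7 and 64.9 CPM, and Shh, Corin and Alpl had 0 in all 4. Of 11 melanocyte genes 8 had a count. Pmel, Tyr and Oca2 had 0 counts in all 4, Mitf, the melanocyte lineage factor, had 20.3 ± 15.7 CPM, Dct had counts in mice 6 and 8 only, at 8.36 and 18.6 CPM, and 76.8% of the melanocyte list was Gpnmb, which macrophages also make. Of 58 keratin-associated protein genes, 4 had a count. Hair keratins and keratin-associated proteins are made mainly while a hair grows. The sources used here do not give the stage of the hair cycle.

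Sebaceous and fat lists share the lipid genes Scd1, Fasn, Cidea and Cidec. Scd1, the desaturase that makes oleate, had 1546, 1046, 1211 and 1385 CPM. It carried 33.2% of the sebaceous list. Elovl4, which builds very long fatty acids, had 550 ± 117 CPM, and Acsbg1 298 ± 43.1 CPM. Of the 20 genes of the sebaceous list, 17 averaged 10 CPM or more and 10 averaged 100 CPM or more. Other members were low, with Awat1 at 20.6 CPM, Elovl3 at 19.6 CPM and Mc5r at 18.7 CPM. In mice 5, 6, 7 and 8 Awat2 had 0, 0, 0 and 39 counts and Dgat2l6 0, 88, 0 and 126. Fat genes were low in mouse 7. Fabp4 had 2711, 4218, 2410 and 3582 CPM, Lpl had 2560, 4144, 2099 and 3605 CPM, and Cfd had 2748, 2799, 1570 and 2927 CPM in mice 5, 6, 7 and 8. Mouse 7 was the lowest for all 3. The list summed to 2.21, 2.71, 1.76 and 2.68% of counts. Of its 21 genes averaging 50 CPM or more, 16 were lowest in mouse 7, where 30.7% of all 3426 genes at that level were lowest. Ucp1, the uncoupling protein of brown fat, had 0 counts in all 4.

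In the dermis, Col1a1 held 66.3% of the counts of the collagen family, and the family held 1.19, 1.77, 1.28 and 1.85% in mice 5, 6, 7 and 8. Col1a2, the partner chain of type I collagen, had 1497, 2323, 1593 and 2205 CPM. Col3a1, the chain of type III collagen, had 578, 1692, 735 and 963 CPM. Sparc, a matricellular protein that binds collagen, had 2228, 3627, 2415 and 3556 CPM, and Dcn, the proteoglycan decorin, 663, 1385, 1109 and 1311 CPM. For each of these 4 genes both mouse 6 and mouse 8 were above both mouse 5 and mouse 7. Of 10 collagen genes of the list at 50 CPM or more, 7 were highest in mouse 6 and 3 in mouse 8, where 29.5% and 20.4% of all genes were highest. With nuclear counts as the denominator the split was 5 and 5, still with none highest in mouse 5 or 7. Fibroblast identity genes, at 0.155 to 0.188% of counts, varied less as a list. Vim, the intermediate filament of mesenchymal cells, had 851, 960, 1026 and 966 CPM and carried 54.4% of that list. Other members differed in spread: Pdgfrb had 2, 464, 70 and 343 counts and Lox 1336, 1073, 1477 and 1184.

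Skeletal muscle genes were abundant, and several with high counts were of the fast type. Besides Acta1, the fast troponins Tnni2 and Tnnt3 had 2230 ± 237 and 2047 ± 370 CPM, the fast light chain gene Myl1 had 1782, 1633, 2535 and 3034 CPM, and Ttn, the giant spring protein titin, 2388 ± 458 CPM. Myh4, the heavy chain of the fastest fibres, had 759, 1211, 1695 and 1616 CPM and 83.6% of the counts of its family. That share is less certain, since the ends of Myh1 (19.3 CPM) and Myh2 (8.60 CPM) are 86.3% and 79% overlapped by other genes. The slow fibre genes Myh7 and Tnni1 had 0 counts in all 4, although the annotated end of Myh7 is 80.3% overlapped by Mhrt. Other members went the other way. Mybpc1, of the slow type, had 108 CPM, above the fast Mybpc2 at 45.7 CPM, whose end is 53.7% overlapped by Gm44646. The fast troponin C gene Tnnc2 had 0.287 CPM with 90.3% of its end overlapped by Ube2c. The muscle list summed to 3.02, 2.81, 3.01 and 3.87%. Of its 20 genes at 50 CPM or more, 17 were highest in mouse 8, against the 20.4% of all genes given above, and 16 with nuclear counts as the denominator, against 23.8%. Smooth muscle and pericyte genes were far lower. Acta2, the smooth muscle actin, had 31.5, 98.7, 69.2 and 238 CPM, a range wider than that of the list as a whole (0.0821 to 0.106% of counts).

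The macrophage list was the largest immune list, at 0.418% of counts, followed by the Langerhans and dendritic cell list at 0.255%, led by genes of antigen presentation. Cd74, the invariant chain, had 1007, 923, 642 and 856 CPM, and the class II chain H2-Aa had 658 ± 85.1 CPM. The top 3 genes carried 77.6% of the Langerhans and dendritic cell list, whereas its member Cd207 had 11.4 CPM. Of its 15 genes 3 had 0 counts in all 4: Clec9a, Ccr7 and Xcr1, whose end is 100% overlapped by another gene. The class I heavy chains H2-K1 and H2-D1 had 1791 ± 328 and 1471 ± 336 CPM. In the macrophage list Apoe, which many skin cells make, carried 69.8% of the counts, and the place of this list above the Langerhans and dendritic cell list rests on Apoe. Csf1r, the macrophage growth factor receptor, had 124 ± 30.1 CPM with 100% of its end overlapped by Hmgxb3. The complement gene C1qa had 66.3, 185, 93.7 and 134 CPM. Mast cell genes had counts for 11 of 12 members, and 7 averaged 10 CPM or more. The proteases Tpsb2 and Cpa3 had 164 ± 20.7 and 60.8 ± 15.3 CPM, and the tryptase gene Tpsab1 had 0 counts in all 4. The receptor genes of the list were lower. In mice 5, 6, 7 and 8 Fcer1a had 2, 0, 0 and 0 counts, Kit 42, 0, 62 and 0, and Ms4a2 84, 0, 81 and 18. T cell receptor constant genes were low, with Trbc2 at 63.8 ± 16.3 CPM and Trdc, the δ chain of epidermal T cells, at 26.3, 31.0, 67.5 and 114 CPM. Of 11 neutrophil genes 8 had 0 counts in all 4, including Ly6g and Mpo, and the list held 0.00219% of counts. Of 15 B and plasma cell genes 11 had 0, including the B cell receptor partner Cd79a and Ms4a1. The heavy chain gene Ighm had 139.5 ± 49.7 CPM, with counts in every library, and carried 79.9% of that list.

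Endothelial genes summed to 0.0466% ± 0.00966, with Pecam1 at 63.8 ± 18.5 CPM. Haemoglobin genes, products of red blood cells, differed more between mice. Hbb-bs had 488, 891, 331 and 934 CPM, and the haemoglobins summed to 0.0739, 0.150, 0.0423 and 0.135%. The α-globin genes Hba-a1 and Hba-a2 are near copies, so the counts of either are uncertain. Schwann cell genes were led by Cryab (622 ± 131 CPM), which muscle also makes, while the myelin gene Mbp had 153 ± 21.8 CPM. Genes of other tissues were at or near 0. Of 7 mammary genes 6 had 0 counts and Prlr had 26.6 ± 19.0 CPM, and of 8 cartilage and bone genes 6 had 0 counts.

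Immediate early genes, which encode transcription factors and other regulators switched on within minutes of a stimulus, varied more than each list with a larger share. Fosb had 1001, 232, 663 and 92.1 CPM in mice 5, 6, 7 and 8. Junb had 929, 462, 650 and 248 CPM, Nr4a1 had 697, 271, 534 and 105 CPM, and Egr1 had 814, 592, 889 and 380 CPM. All 4 genes were high in mice 5 and 7 and lowest in mouse 8. The list summed to 0.815, 0.480, 0.648 and 0.286%, a 2.85-fold range. Of its 22 genes at 50 CPM or more, 15 were highest in mouse 5, where 28.5% of all genes were highest, and 18 were lowest in mouse 8, where 30.4% were. With nuclear counts as the denominator these were 14 and 17, against 25.7% and 27.2%. The sources used here do not say how long each tissue piece waited before freezing, and its part in these values was not tested. Junb lies beside Prdx2, whose exons overlap its own in the table, so its counts are less certain.

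**Figure D3:**
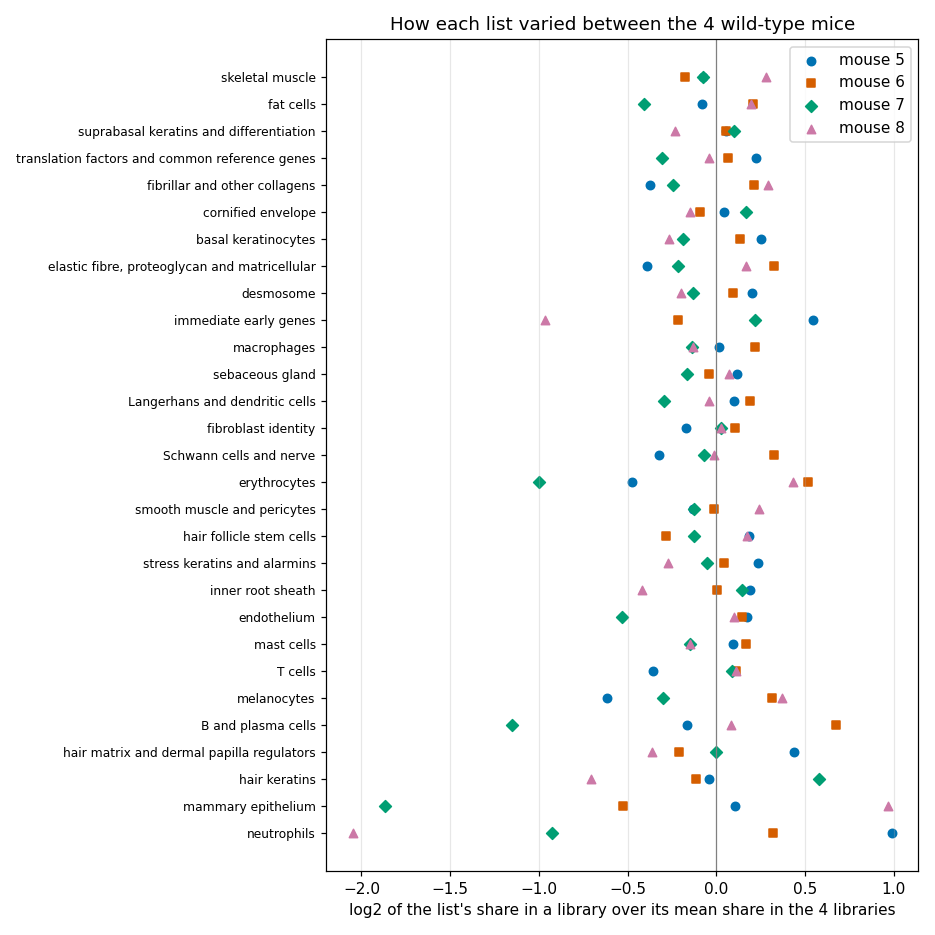
Share of each list in a library over the mean share of the 4 libraries, on a log2 scale, with 1 symbol per mouse and lists ordered by mean share. Immediate early genes run from mouse 8 on the left to mouse 5 on the right, and the widest rows at the bottom are those of lists with small shares.

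Cytosolic ribosomal proteins were the largest nuclear family, with 5.05, 5.36, 4.66 and 4.01% of counts. Of the 71 genes of the family at 50 CPM or more, 38 were highest in mouse 6 and 41 were lowest in mouse 8, against 29.5% and 30.4% of all genes. With nuclear counts as the denominator these were 32 and 37, against 22.7% and 27.2%. Rps12 (2769 ± 278 CPM) and Rplp1 (2603 ± 345 CPM) led it. Nuclear genes of the respiratory chain and ATP synthase went another way: they held 1.71, 1.67, 1.63 and 1.93%, and 35 of 69 were highest in mouse 8, against 20.4% of all genes. Heat shock proteins held 0.807% ± 0.0271, led by the chaperone Hsp90ab1 (2019 ± 198 CPM).

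Mitochondrially encoded genes held 15.6, 12.3, 21.6 and 19.5% of the counts of mice 5, 6, 7 and 8. One of them, mt-Nd4 (chrM:10167-11544), a subunit of complex I, took 92110, 69959, 142505 and 121147 CPM, more than any nuclear gene in each library. Then came mt-Cytb of complex III with 23726 ± 4251 CPM and mt-Nd1 of complex I with 15307 ± 1878 CPM. mt-Nd6, on the opposite strand, had 10572 ± 2776 CPM. Its exon overlaps that of mt-Nd5, and the sources used here do not say whether counting used strand. Of the 10 mitochondrial genes at 50 CPM or more, 9 were lowest in mouse 6, where 18.4% of all genes were lowest.

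A high mitochondrial share lowers every nuclear CPM of the same library. Counted against nuclear genes only, each nuclear gene rose by 0.24, 0.19, 0.35 and 0.31 on the log2 scale in mice 5, 6, 7 and 8. The epidermal lists then held 6.50, 5.95, 6.69 and 5.46% and were highest in mouse 7 and not mouse 5. The fat list held 2.62, 3.09, 2.25 and 3.33% and the dermal lists 2.08, 3.04, 2.48 and 3.31%, both highest in mouse 8 and not mouse 6. The lowest library was the same on both scales for the epidermal, muscle, fat, dermal and immune lists. The number of genes that held 50% of the counts was 392, 488, 282 and 316 over all genes and 691, 740, 676 and 699 over nuclear genes.

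**Figure D4:**
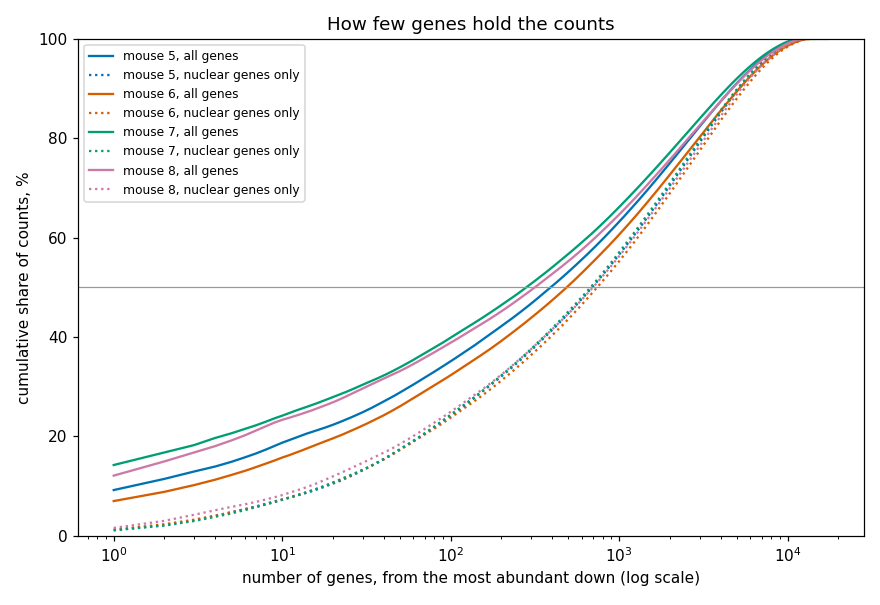
Cumulative share of counts against the number of genes taken from the most abundant down, on a log scale, for all genes (solid) and nuclear genes only (dotted) in each mouse. The solid curves cross 50% between 282 and 488 genes and the dotted ones between 676 and 740, where they nearly coincide.

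Some mitochondrial genes that encode core subunits were missing from the counts. mt-Co2, mt-Co3, mt-Atp8 and mt-Nd4l had 0 counts in all 4 libraries, mt-Atp6 had 0, 1, 3 and 0 counts, and mt-Nd3 had 263, 0, 0 and 81 counts. A stretch of nuclear chromosome 1 holds annotated copies of this segment of the mitochondrial genome, and the sequences near the transcript ends show how alike they are. Each sequence below runs from 110 to 51 bases before the 3′ end of the mitochondrial transcript, in GRCm38 (the genome given here, older than the mm39 of the counts), with the copy on the minus strand. Capitals are not used, since the copies match at every base of this window.
mt-Co2, chrM:7587-7646, plus strand: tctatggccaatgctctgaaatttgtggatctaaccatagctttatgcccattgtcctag
Gm28661, chr1:24614932-24614991, minus strand: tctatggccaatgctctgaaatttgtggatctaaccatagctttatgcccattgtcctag
mt-Co3, chrM:9281-9340, plus strand: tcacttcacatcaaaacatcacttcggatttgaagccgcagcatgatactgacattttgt
Gm28437, chr1:24613238-24613297, minus strand: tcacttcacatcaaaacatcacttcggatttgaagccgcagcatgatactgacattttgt
mt-Nd4, chrM:11435-11494, plus strand: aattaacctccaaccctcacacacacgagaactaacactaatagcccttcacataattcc
The window of mt-Nd4, the most abundant gene, was found in 0 other annotated transcripts. The nuclear copies of mt-Co2 and mt-Co3 had almost no counts either: Gm28661 had 2, 1, 2 and 4 and Gm28437 had 2, 2, 5 and 4. Gm28438, the copy of mt-Nd3, had 2, 402, 520 and 17 counts in mice 5, 6, 7 and 8, where mt-Nd3 had 263, 0, 0 and 81. Gm10925, the copy of mt-Atp6, had 381, 2, 252 and 350 counts, where mt-Atp6 had 0, 1, 3 and 0. Whether reads of the mitochondrial genes were lost or placed on these copies was not tested.

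To see how common shared ends were, the last 300 bases of each coding gene were searched for 50-base stretches that also stand in a transcript of another gene (GENCODE M21, GRCm38). Of the mitochondrial genes, mt-Co2 shared 100% of these stretches, mt-Co3 99.6% and mt-Nd3, mt-Nd4l and mt-Atp6 98.8% each. There were exceptions: mt-Atp8 shared 0% and had 0 counts, and mt-Co1 shared 100% and had 1453 CPM. Among 21777 coding genes, 31.8% of the 18494 with no shared stretch had 0 counts in all 4 libraries. The percentage was 56.5% with under 50% shared, 76.7% with 50 to under 100% shared and 92.9% of the 828 genes with a fully shared end. How reads that fit several places were treated is not stated in these sources. Genes in large families also differ from others in where they are expressed, and the part of that in these percentages was not tested.

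Gene ends fully overlapped by another gene's exon had low counts too. Among genes with no shared stretch, the median level was 7.14 CPM with no overlap, 6.65 CPM with under 50%, 2.26 CPM with 50 to under 100% and 0.203 CPM with full overlap. The percentages with 0 counts in all 4 were 31.5, 25.8, 31.2 and 47.6%, so only the last class lay above the first. Full overlap did not always go with low counts: Rpl31 had 1113 CPM and Ctsb 472 CPM with 100% of the end overlapped. Several textbook skin or muscle genes had overlapped or shared ends, and these genes, Rpl31 and Ctsb were chosen after their values were seen. Myoglobin (Mb) had 0.589 CPM with its end fully overlapped by Gm49540, the fast troponin C gene Tnnc2 had 0.287 CPM with 90.3% overlapped by Ube2c, and the muscle calcium pump gene Atp2a1 had 9.20 CPM with 89.7% overlapped by Rabep2. Sbsn, a suprabasal keratinocyte gene, had 8.88 CPM with 93.0% of its end overlapped by Tmem147os. Gapdh, a common reference gene with many pseudogenes, had 62.7 CPM and shared 82.9% of its stretches. Actg1, the γ-actin of most cells, had 0.0589 CPM with neither overlap nor a shared stretch. Whether these transcripts were low in the tissue itself was not tested. Among genes with 0 counts, the hair and root sheath keratins Krt33a, Krt35 and Krt71 and the pigment genes Tyr and Oca2 had 0% of their end shared and 0% overlapped, Pmel had 35% overlapped by Dgka, and Sprr2a1 shared 100% with Sprr2a2.

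The start sites of the abundant genes were searched for the TATAAA motif, a core promoter element that helps place the start of transcription. Windows were taken from RefSeq (GRCm38.p6), matched by symbol. Of 57 genes at 1000 CPM or more with a window, 15.8% held TATAAA on the gene's strand between 45 and 16 bases before the start. Of all 20990 genes with a window it was 2.96%, and of those at 100 to 1000 CPM 2.55%. In the cornified envelope list it was 10 of 33 genes (30.3%), and among ribosomal protein genes 1 of 66. On either strand over the 250 bases before the start the percentages were 26.3% for the genes at 1000 CPM or more and 13.7% for all. The inner root sheath list held the motif in 5 of 11 genes and the hair keratin list in 4 of 9, although nearly all of their members had 0 counts. The 60 bases before the start of the 5 most abundant genes of the epidermal lists are printed to show where the motif sits, with TATAAA in capitals.
Lor, chr3:92083143-92083202, minus strand: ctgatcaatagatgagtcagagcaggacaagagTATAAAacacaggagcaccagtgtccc
Krt10, chr11:99389365-99389424, minus strand: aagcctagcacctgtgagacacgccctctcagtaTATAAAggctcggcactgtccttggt
Krt77, chr15:101869706-101869765, minus strand: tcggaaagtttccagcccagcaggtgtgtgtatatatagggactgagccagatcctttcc
Krtdap, chr7:30787845-30787904, plus strand: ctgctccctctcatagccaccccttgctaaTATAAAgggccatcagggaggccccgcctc
Krt5, chr15:101712906-101712965, minus strand: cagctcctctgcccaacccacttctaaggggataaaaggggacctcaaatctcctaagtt
The motif began 27 bases before the start in Lor, 26 in Krt10 and 30 in Krtdap, and these letters were not in the Krt77 and Krt5 windows. A match is a description of the letters and not a test of use. Abundant genes also encoded short proteins: the median coding length was 291 codons at 1000 CPM or more, 389 at 100 to 1000 CPM and 472 at 10 to 100 CPM.

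The spread between the 4 libraries joins differences between animals and between library preparations, which cannot be told apart with 1 library per mouse. The SD over the mean had a median of 44.9% for genes of 10 to 100 CPM, 21.8% for 100 to 1000 CPM and 18.0% at 1000 CPM or more, while counting alone would give 6.38%, 2.62% and 0.815%. The common biological coefficient of variation of edgeR was 63.0% over the 9077 genes averaging 10 CPM or more and 31.5% over the 3426 at 50 CPM or more. Of these 3426, 1282 differed at least 2-fold between the highest and lowest mouse and 909 by less than 1.5-fold. Pairs of libraries correlated across the 9077 genes with Pearson r of 0.701 to 0.760 on log2(CPM + 1) and Spearman rho of 0.753 to 0.787. Genes are not independent, and these values carry no test.

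**Figure D5:**
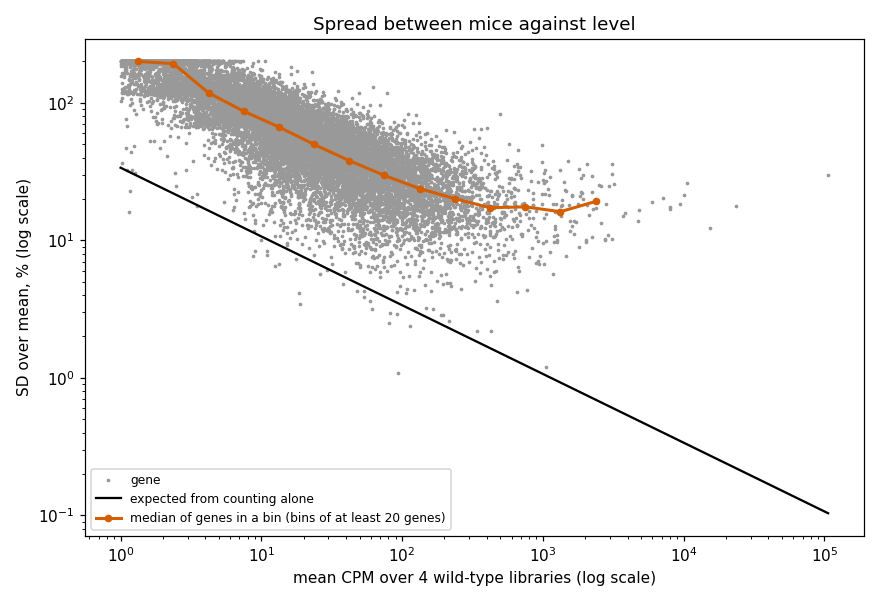
SD over mean of CPM (n = 4) against mean CPM for each gene, both on log scales, with the median of bins of at least 20 genes in orange and the value expected from counting alone as a black line. The median falls from over 100% at a few CPM to about 18.0% at 1000 CPM and stays above the line throughout.

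The widest spread among genes at 50 CPM or more was in Trim30a, an interferon-induced gene, with 13.1, 21.9, 184 and 30.5 CPM in mice 5, 6, 7 and 8. Psmb9, an immunoproteasome subunit, had 74.4, 110, 18.5 and 6.60 CPM. Trim30a peaked in mouse 7 and Psmb9 in mouse 6. The exons of Psmb9 overlap those of Tap1, so its counts are less certain. Cyp2e1, a cytochrome P450 of fat and liver, had 16.9, 62.1, 19.0 and 212 CPM, and Epgn, an EGF-family growth factor of keratinocytes, had 110, 39.9, 75.7 and 0.707 CPM. The narrowest spread was in Dctn6, a dynactin subunit, with 92.3, 94.2, 94.4 and 94.2 CPM, and Rpl7, a ribosomal protein, with 1063, 1038, 1062 and 1065 CPM. With 4 values per gene and 3426 genes, both ends of this order are chosen for their extremes.

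Single libraries also lacked genes that others held. A minimum of 100 counts in 1 or more libraries was reached by 11146 genes, and 2124 of them (19.1%) were at 0 elsewhere. The percentage was 12.3, 15.2, 12.5 and 13.9% without mouse 5, 6, 7 and 8 in turn, so it was lower whichever library was left out. Agpat2, an enzyme of triglyceride synthesis in fat whose exons overlap those of Egfl7, had 517 counts in mouse 5 and 0 in mouse 7. Of the 9077 genes averaging 10 CPM or more, 194, 40, 233 and 153 had 0 counts in mice 5, 6, 7 and 8. Mouse 6, with the fewest, also had the most genes with a count (14179) and the lowest mitochondrial share. Whether duplicate reads were removed is not stated either, and its part in these zeros was not tested.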

How the data were processed

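The authors deposited 1 table of raw counts per gene (56691 genes), with exon coordinates. Per the submitters' processing notes, the build was mm39 and the tools were featureCounts, Subread 2.0.3, edgeR 3.36.0, GATK 4.2.4.0 and STAR, with no role or order given. The 4 WT columns were used and the 3 KO columns were not. Groups came from the titles. Counts were divided by the library total (CPM), and means and SDs were taken over 4 mice. No test between groups was made, since there is 1 group. The biological coefficient of variation came from edgeR 4.0.16 (intercept only, TMM) in R 4.3.3, and other steps ran in Python 3.11.15, tested on simulated data.

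Members, 30 gene lists and 29 symbol families were chosen with earlier results of these data known. Of 483 listed symbols 477 were found. The immunoglobulin pattern was corrected and the searches of gene ends and promoters were chosen after seeing the data. Named were the 25 top nuclear and 5 top mitochondrial genes, up to 5 per list and 4 per family, the 10 widest and 10 narrowest spreads at 50 CPM or more, 5 genes at 0 in a library with at least 100 counts in another, and list members at 0 throughout. Genes at 50 CPM or more were used to ask which mouse was highest. No protein sequences were used, so coding length from GENCODE M21 took the place of protein features. Alternatives were TMM and DESeq2 1.42.0 scaling, nuclear counts as the denominator, other filters and pseudocounts, thinning and leaving out each library. Some genes that these rules allow are not reported here.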

Additional observations from a re-analysis of the deposited data

Results flagged for a closer look

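A single mouse stood apart from the other 3, by more than Dixon's 95% limit for 4 values, in 12 of the 275 lists and genes examined and reported here. Chance alone would flag about 1 in 20, or 13.75, close to the number found. The 3 lists were the suprabasal list (1.86% of counts in mouse 8, 2.26 to 2.34% in the others), the endothelial list (0.0322% in mouse 7, 0.0501 to 0.0526% in the others) and the T cell list (0.0245% in mouse 5, 0.0333 to 0.0338% in the others). Thy1, which is also in the fibroblast list, carried 41.2% of the T cell list. Its members did not all go the same way. In mice 5, 6, 7 and 8 Cd3d had 146, 34, 74 and 87 counts, Cd3e 197, 1, 0 and 40, and Cd3g 46, 145, 158 and 94. Genes high in 1 mouse were Ankrd2, a stress-responsive muscle gene (170.7 CPM in mouse 6, 28.5 to 47.8 in the others), Gsn, which encodes gelsolin (1419 CPM in mouse 6, 830.1 to 888 in the others), Igkc, an antibody light chain gene (79.0 CPM in mouse 6, 0.118 to 11.6 in the others), Trim30a (184 CPM in mouse 7, 13.1 to 30.5 in the others), Cyp2f2 (278 CPM in mouse 8, 54.97 to 89.4 in the others) and Tcf7l1, a transcription factor of follicle stem cells (148 CPM in mouse 8, 42.2 to 51.9 in the others). Genes low in 1 mouse were Cfd (1570.1 CPM in mouse 7, 2748 to 2927 in the others), Dctn6 (92.3 CPM in mouse 5, 94.2 to 94.4 in the others) and Rpl7 (1038 CPM in mouse 6, 1062 to 1065 in the others). Dctn6 and Rpl7 are also among the 10 genes with the narrowest spread, so their gaps are small in CPM.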

How the results depend on the processing

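TMM and DESeq2 scaling moved none of the shares of counts by more than their SD, and the median SD over mean, 39.3%, became 39.2% with both. Thinning to the smallest library was run only on the numbers of genes with a count or at 1, 10 or 100 CPM, which stayed within 1.5 times. Without Car3, chosen after seeing the data, the fat share was 1.54%. With nuclear counts as the denominator, the shares became 5.76% for ribosomal proteins, 2.44% for keratins, 6.15% for epidermis, 3.97% for muscle, 2.82% for fat, 0.919% for immune, 0.473% for sebaceous, 0.222% for follicle and 0.138% for nerve lists, the top 10, 100 and 1000 genes held 7.51, 24.3 and 56.3%, and 701.5 genes held 50% of the counts. The median SD over mean was 73.1% over genes with any count and 25.6% at 50 CPM or more. The common biological coefficient of variation was 139% and 31.5%, and the mean Pearson r 0.811 and 0.857, under the same filters. Pseudocounts of 0.5 and 5 CPM gave r of 0.694 and 0.809. The percentage of genes at 0 in another library was 32.3% with a minimum of 50 counts and 7.15% with 200, and 12.3 to 15.2% with any 1 library left out, lowest without mouse 5 (12.3%) and mouse 7 (12.5%). These 4 mice, with unknown age and body site and with sex read only from Y chromosome counts, limit every SD. No paired analysis was possible because only 1 group was analysed and the mouse numbers are not shared between groups.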
